A study of Mus musculus with 4 samples.

Results

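Gzmb-positive CD8 effector T cells were described here in tumors grown from a Tsc2-deficient mouse kidney tumor line, 105K, with or without knockdown of B7-H3. A cell counted as a member when it had at least 3 UMIs (unique molecular identifiers, each standing for 1 captured transcript) of Cd8a and Cd8b1 together, no Cd4 UMI, at least 20 Ccl5 UMIs and at least 2 Gzmb UMIs. Cells with both Pdcd1 and Lag3, or with both Ifit1 and Ifit3, were left out. After filters of 200 to 3000 genes per cell and no more than 5% of UMIs from mitochondrial genes, 21900 of 38860 called cells remained in 4 libraries, and 338 of them were members. The members were thus selected on their own UMI counts of Cd8a, Cd8b1, Cd4, Ccl5, Gzmb, Pdcd1, Lag3, Ifit1 and Ifit3, and the levels of these genes are given as descriptions, without tests.

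Both groups of tumors grew under the skin of wild-type C57BL/6J mice, whose own T cells were therefore intact. In the control group the tumor cells carried the hairpin sh-NC, and in the other group sh-B7-H3 (1), which targets Cd276. This gene encodes B7-H3, a surface ligand of the B7 family that acts as an immune checkpoint. From each group 80 tumors were pooled, live CD3+ cells were sorted and stained with a panel of barcoded antibodies (CITE-seq, which reads transcripts and surface proteins of the same cell), and the cells were loaded to give 2 libraries per group. The design text describes duplicate lanes of a pool, whereas the study's own text also speaks of independent samples, and no label settles which holds. It is therefore not known whether the spread between libraries of a group includes differences between sets of tumors or only between lanes. On this spread rest the SDs with n = 2 and the SEs and p-values between knockdown and control. SEs and p-values between cell sets rest on how the difference within a library varied over the 4 libraries, under the same limit. The hairpin acted in the tumor cells and not in the sorted cells: Cd276 (chromosome 9, 58524298 to 58555437, GRCm38) had 0 UMIs in the members of every library and cannot serve as a check of the labels.

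CD8 effector T cells kill by releasing granules that hold perforin and granzymes, and by displaying Fas ligand. Granzyme B, the product of Gzmb (chromosome 14, 56258838 to 56262260, GRCm38), is a protease that starts apoptosis in the target cell, and CCL5 is a chemokine that such cells store and secrete. In tissues, effector cells often carry integrins that hold them in place, such as CD49a (Itga1), which binds collagen, and CD103 (Itgae), which binds E-cadherin. Naive and memory cells instead keep the transcription factor TCF1 (Tcf7), the IL-7 receptor (Il7r) and the receptors that guide them through lymph nodes.

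The libraries held 79224898 to 132820909 RNA UMIs, and the median member had 5642, 6089, 6168 and 6195 UMIs in control replicates 1 and 2 and knockdown replicates 1 and 2, the order kept below wherever 4 values are given. Any pair of libraries shared 17 to 35 called barcodes, and no barcode was that of a member in both libraries of a pair. A doublet score marked 8.47% and 11.7% of control members and 17.9% and 17.8% of knockdown members, against 17.2%, 19.2%, 14.9% and 16.6% of all kept cells, and these cells were kept in the main values. All 6 CD8 T cell markers were detected, Cd3e, Trac, Trbc1 and Trbc2 as well as Cd8a and Cd8b1 of the rule, with a summed level of 7264 to 7861 CPM (counts-per-million). Of genes that mark other cells, S100a8 and S100a9 of neutrophils were at 0 in the members of every library, as were 4 of 7 B cell genes (Cd79a, Ms4a1, Pax5 and Iglc2), 7 of 11 tumor or stroma genes (including Krt8, Krt19 and Col3a1) and 2 of 7 NK cell genes (Ncr1 and Klra8). The other 5 NK cell genes had UMIs, and the list summed to 154 to 179 CPM in the members, 111 to 150 CPM in Ccl5-high CD8 cells with fewer Gzmb UMIs and 37.0 to 108 CPM in barcodes not called as cells. The gamma-delta T cell list, with 4 genes detected, summed to 203 to 285 CPM in the members, 131 to 234 CPM in those Gzmb-low cells and 41.5 to 103 CPM in uncalled barcodes. Both lists thus stood above free RNA in the members. The B cell list, with 3 genes detected, stood below it, at 40.1 to 74.1 CPM against 187 to 288 CPM. Macrophage transcripts were not at 0 either, and their levels are given below beside the result they touch.

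Of the 5 genes that name the label, Ccl5 and Gzmb belonged to the rule. The median member had 105, 100, 134 and 121 Ccl5 UMIs and 4, 5, 3 and 4 Gzmb UMIs in the libraries. Members at the lower edge, with exactly 2 Gzmb UMIs (77 cells), averaged 407 CPM ± 69.1 of Gzmk and 104 CPM ± 50.1 of Itga1 (SD, n = 4 libraries). Ccl5-high cells just outside the edge, with 1 Gzmb UMI (174 cells), averaged 348 CPM ± 59.3 and 55.7 CPM ± 30.7, and those with none (797 cells) 215 CPM ± 58.2 and 41.5 CPM ± 10.7. Tcf7 averaged 43.7 CPM ± 36.5, 38.2 CPM ± 21.7 and 115 CPM ± 56.2 in these sets. These SDs mix control and knockdown libraries. Within libraries, Gzmk was higher with 2 Gzmb UMIs than with 1 each time, at 456, 459, 400 and 311 against 409, 292, 388 and 303 CPM. Itga1 was higher in every library but control replicate 2 (73.1 against 101 CPM). Its highest value, 178 CPM in control replicate 1, came from 10 cells. Tcf7 was higher in some libraries and lower in others. The step at the edge was not tested.

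The first question was how many such cells each group of tumors held. Members made up 0.782% and 1.24% of the kept cells under sh-NC, against 2.72% and 2.32% under sh-B7-H3 (1), and no control library reached a knockdown library. The means were 1.01% ± 0.321 and 2.52% ± 0.282 (SD, n = 2), a ratio of 2.49. Among CD8 cells the shares were 1.83% and 2.76% in the control group against 7.06% and 5.81% after B7-H3 knockdown, with means of 2.29% ± 0.653 and 6.44% ± 0.887 and a ratio of 2.81. Exact 95% binomial intervals, which cover counting error only, ran from 1.40% to 2.36% and from 2.18% to 3.43% under sh-NC, and from 5.75% to 8.57% and from 4.78% to 6.98% under sh-B7-H3 (1). The exact two-sided permutation test gave p = 0.333 for both shares, the smallest value that 2 libraries against 2 allow.

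Ccl5-high CD8 cells were more frequent in both knockdown libraries than in either control library, while the Gzmb-positive fraction among them was not higher. With the Pdcd1 and Lag3 and the Ifit1 and Ifit3 double-positive cells kept in, they made up 13.9% and 17.7% of CD8 cells under sh-NC and 64.2% and 61.5% under sh-B7-H3 (1), a ratio of 3.97 between the means. Of these cells, 36.3% and 34.1% were Gzmb-positive in the control group and 26.5% and 26.6% after knockdown (means of 35.2% ± 1.53 and 26.5% ± 0.0604). Without the double-positive cells, those that met every condition but the one on Gzmb made up 6.49% and 9.20% of CD8 cells under sh-NC and 26.0% and 26.8% under sh-B7-H3 (1), a ratio of 3.36 between the means. Within these cells, 28.2% and 30.0% were Gzmb-positive in the control group, against 27.1% and 21.7% after knockdown. The means were 29.1% ± 1.22 and 24.4% ± 3.85, and with each cell thinned to 3000 UMIs and 1 Gzmb UMI required they were 33.2% ± 3.22 and 29.1% ± 3.16. Of the Gzmb-positive Ccl5-high CD8 cells without the Ifit1 and Ifit3 pair, 48.4% ± 7.74 in the control group and 54.6% ± 4.37 after knockdown carried both Pdcd1 and Lag3 and were thereby left out. Since Gzmb, Pdcd1 and Lag3 belong to the rule, these fractions are descriptions and were given no test. Free Ccl5, in uncalled barcodes, was at 1212, 1417, 4279 and 4741 CPM. The filters kept 7549 of 12112, 6233 of 10589, 3499 of 7030 and 4619 of 9129 called cells. The part of free Ccl5 and of the filters in the shares was not tested.

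**Figure D1:**
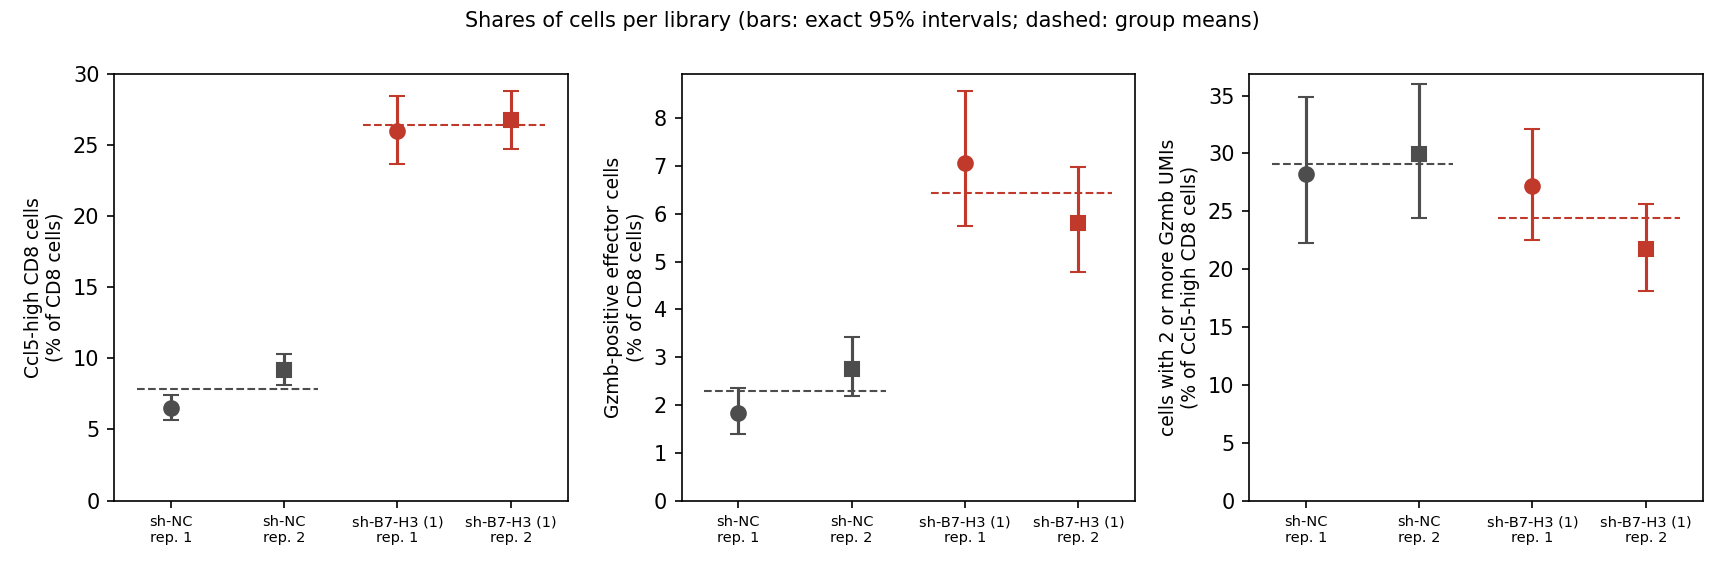
Share per library of Ccl5-high CD8 cells among CD8 cells (left), of Gzmb-positive effector cells among CD8 cells (middle) and of cells with at least 2 Gzmb UMIs among Ccl5-high CD8 cells (right), in percent, with exact 95% intervals as bars and group means as dashed lines. Both knockdown libraries lie above both control libraries in the left and middle panels, and all 4 libraries lie between 21.7% and 30.0% in the right panel.

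To ask what else set these cells apart, UMI sums of the members were compared with those of the 971 Gzmb-low cells, which met the other conditions but had 0 or 1 Gzmb UMI, within each library. A gene was called when edgeR's Benjamini-Hochberg adjusted p was under 0.05 and the log2 fold change at least 1 in size, and errors of fold changes are standard errors. Of 7511 genes tested, 47 were called, 0.626% (9 higher in the members, 0.12%, and 38 lower, 0.506%), and 252 passed the adjusted p alone. The median log2 fold change over all tested genes was 0.00, and in 6.63% of them the members of all 4 libraries lay on 1 side of the Gzmb-low cells of all 4. The Gzmb-low cells were deeper than the members in the control libraries (medians of 7062.5 and 6668 UMIs) and shallower in the knockdown libraries (5786 and 5655). With both sets thinned to 3000 UMIs per cell, 14 genes were called.

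Among the killing genes, Gzma rose. This gene of granzyme A, a second granule protease (chromosome 13, 113093825 to 113100981, GRCm38), stood at 413, 600, 289 and 350 CPM in the members and at 42.6, 42.1, 14.1 and 1.27 CPM in the Gzmb-low cells. The log2 fold change was 4.28 ± 0.21 (adjusted p = 8.86e-18), and no library's member value came near any Gzmb-low value. Few cells carried it: 6, 8, 3 and 5 members with at least 5 Gzma UMIs held 97.0%, 97.8%, 99.4% and 97.1% of the members' Gzma UMIs. They were 10.2%, 10.4%, 3.16% and 4.67% of the members, against 1.33%, 2.22%, 0.784% and 0% of the Gzmb-low cells. The high Gzma level of the members was therefore that of a few cells and not of the typical member.

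Gzmk, the gene of granzyme K, was spread over most members. It stood at 426, 463, 450 and 388 CPM in the members and at 196, 204, 287 and 290 CPM in the Gzmb-low cells, higher in the members of every library (log2 difference 0.81 ± 0.10, adjusted p = 2.48e-06, under the fold limit). Its UMIs came from 50 of 59, 67 of 77, 84 of 95 and 90 of 107 members. Nkg7, a granule membrane protein needed for degranulation, differed by 0.46 ± 0.11 (adjusted p = 0.0093), and Prf1, the gene of perforin, by 0.38 ± 0.12 (adjusted p = 0.102). Gzmm, the gene of granzyme M, fell, from 40.9 and 42.1 CPM in the Gzmb-low cells of the control libraries to 15.0 and 9.26 CPM in the members (log2 fold change −1.46 ± 0.37, adjusted p = 0.0180), whereas in the knockdown libraries it was at 8.88 CPM or below in both sets. The call of Gzmm was lost without control replicate 1 (adjusted p = 0.0885), control replicate 2 (0.367) or knockdown replicate 2 (0.107). Of 17 granule genes tested besides Gzmb, 1 rose (Gzma) and 1 fell (Gzmm), with a median log2 fold change of 0.21.

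The label's adhesion and death ligand genes followed in part. Itga1 stood at 67.6, 87.1, 82.9 and 83.9 CPM in the members and 38.3, 44.2, 54.4 and 47.8 CPM in the Gzmb-low cells, with no overlap between the sets (log2 difference 0.80 ± 0.15, adjusted p = 0.000715). Fasl, the gene of Fas ligand, was at 175, 163, 143 and 134 against 106, 101, 117 and 117 CPM (0.45 ± 0.12, adjusted p = 0.0193). Cdh1, the gene of E-cadherin, was at 47.6, 35.2, 39.0 and 49.2 against 27.8, 30.7, 48.6 and 59.2 CPM, higher in the members of both control libraries and lower in those of both knockdown libraries (−0.01 ± 0.19, adjusted p = 0.991). Cdh1 thus did not separate the members from Gzmb-low cells, while Itga1 and Fasl did so under the fold limit. Ifng, the gene of interferon gamma, differed by 0.60 ± 0.13 (adjusted p = 0.0034) and Itgae by 0.67 ± 0.18 (adjusted p = 0.0248). None of the 17 genes of tissue residency and adhesion was called, with a median of 0.17. Of 8 genes of death ligands and the TNF family, 4 were above 0 and 4 below, the median was 0.05, and the only call was that of a gene that fell, Tnfsf8, which encodes CD30 ligand. It was at 7.52, 3.70, 3.25 and 5.78 CPM in the members and at 40.01, 45.7, 7.04 and 16.9 CPM in the Gzmb-low cells (−2.32 ± 0.38, adjusted p = 0.00012), and at 3000 UMIs per cell its adjusted p was 0.0619.

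Genes of quiescence and memory were lower. Of 15 tested, 6 fell (Tcf7, Il7r, Id3, Satb1, Slamf6 and Dapl1) and none rose, and the median log2 fold change was −0.66. Il7r, the receptor for the survival cytokine IL-7, stood at 65.1, 85.2, 37.4 and 47.7 CPM in the members and 372, 298, 118 and 109 CPM in the Gzmb-low cells (−1.82 ± 0.15, adjusted p = 2.11e-11). Tcf7 stood at 22.5, 46.3, 34.1 and 24.6 against 167, 156, 53.1 and 70.6 CPM (−1.67 ± 0.19, adjusted p = 2.85e-07). Id3, a transcriptional inhibitor kept by memory cells, stood at 7.52, 1.85, 8.13 and 7.23 against 62.6, 57.8, 21.8 and 28.7 CPM (−2.64 ± 0.33, adjusted p = 1.68e-06). In all 3 genes the members of every library lay below the Gzmb-low cells of every library, and the Gzmb-low cells of the control group lay above those of the knockdown group. Il7r and Tcf7 stayed called in 15 of 15 alternatives and Id3 in 14 of 14.

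Of 8 genes of the egress and lymph node homing list tested, Ly6c2 among them, all were lower, with a median log2 fold change of −0.84. Of these, 2 were called and 6 passed the adjusted p. Ccr7, a chemokine receptor that leads cells into lymph nodes, fell (−1.27 ± 0.25, adjusted p = 0.00175), but not when cells with up to 5000 genes were kept (−0.60, adjusted p = 0.0891). With doublet-scored cells removed its value was −2.37. Among chemokine receptors Ccr2, which answers to monocyte-attracting chemokines, rose, at 80.2, 68.5, 109 and 66.5 against 42.6, 35.0, 37.1 and 36.8 CPM (1.09 ± 0.16, adjusted p = 2.08e-05), and Cxcr4 fell (−1.04 ± 0.28, adjusted p = 0.0297). The log2 fold change of Ccr2 was under the limit without knockdown replicate 1 (0.90), with 3 Gzmb UMIs required (0.84) and at 3000 UMIs per cell (0.93), with an adjusted p under 0.05 each time. Cxcr4 lost its call without control replicate 1 (adjusted p = 0.107), control replicate 2 (0.267) or knockdown replicate 2 (0.182).

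Among transcription factors the members showed more Maf, which acts in effector and exhausted T cells, at 65.1, 50.01, 56.9 and 78.1 against 25.2, 26.4, 28.8 and 36.8 CPM (1.08 ± 0.17, adjusted p = 0.000106). Id2, a partner of effector differentiation, was at 887, 1198, 1045 and 1035 against 511, 586, 765 and 699 CPM (0.71 ± 0.10, adjusted p = 6.4e-06). Of 18 factors tested, Maf alone was called, and the median was 0.13. Klrg1, a receptor of late effector cells, rose by 1.57 ± 0.31 on the log2 scale (adjusted p = 0.00175), and by 1.13 without knockdown replicate 2 (adjusted p = 0.321). Of 11 killer lectin-like and innate-like receptor genes tested, Klrg1 alone was called higher and 1 was called lower, with 7 above 0 and 4 below. Entpd1, the gene of the ectonucleotidase CD39, and Havcr2, the gene of TIM-3, were higher by 0.84 ± 0.15 (adjusted p = 0.000439) and 0.63 ± 0.18 (adjusted p = 0.0465), and none of 13 inhibitory receptor genes was called.

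Interferon-stimulated genes stood higher although cells with both Ifit1 and Ifit3 had been left out of both sets. Of 12 tested, 11 had a log2 fold change above 0, the median was 0.58, and Isg15, a ubiquitin-like protein induced by interferon, was called. Isg15 was at 45.1, 115, 114 and 156 CPM in the members and 58.3, 39.9, 36.5 and 53.7 CPM in the Gzmb-low cells (1.26 ± 0.18, adjusted p = 8.82e-06). It was not higher in the members of control replicate 1, and DESeq2 gave an adjusted p of 0.123. Zbp1, a sensor of nucleic acids, was higher in all 4 libraries, at 108, 119, 119 and 149 against 61.7, 59.2, 67.8 and 63.8 CPM (0.98 ± 0.13, adjusted p = 3.13e-06). All 11 genes tested for S100 proteins, galectins and annexins were higher in the members, with a median of 0.37 and none called, among them Lgals1 (0.66 ± 0.11, adjusted p = 0.000106).

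**Figure D2:**
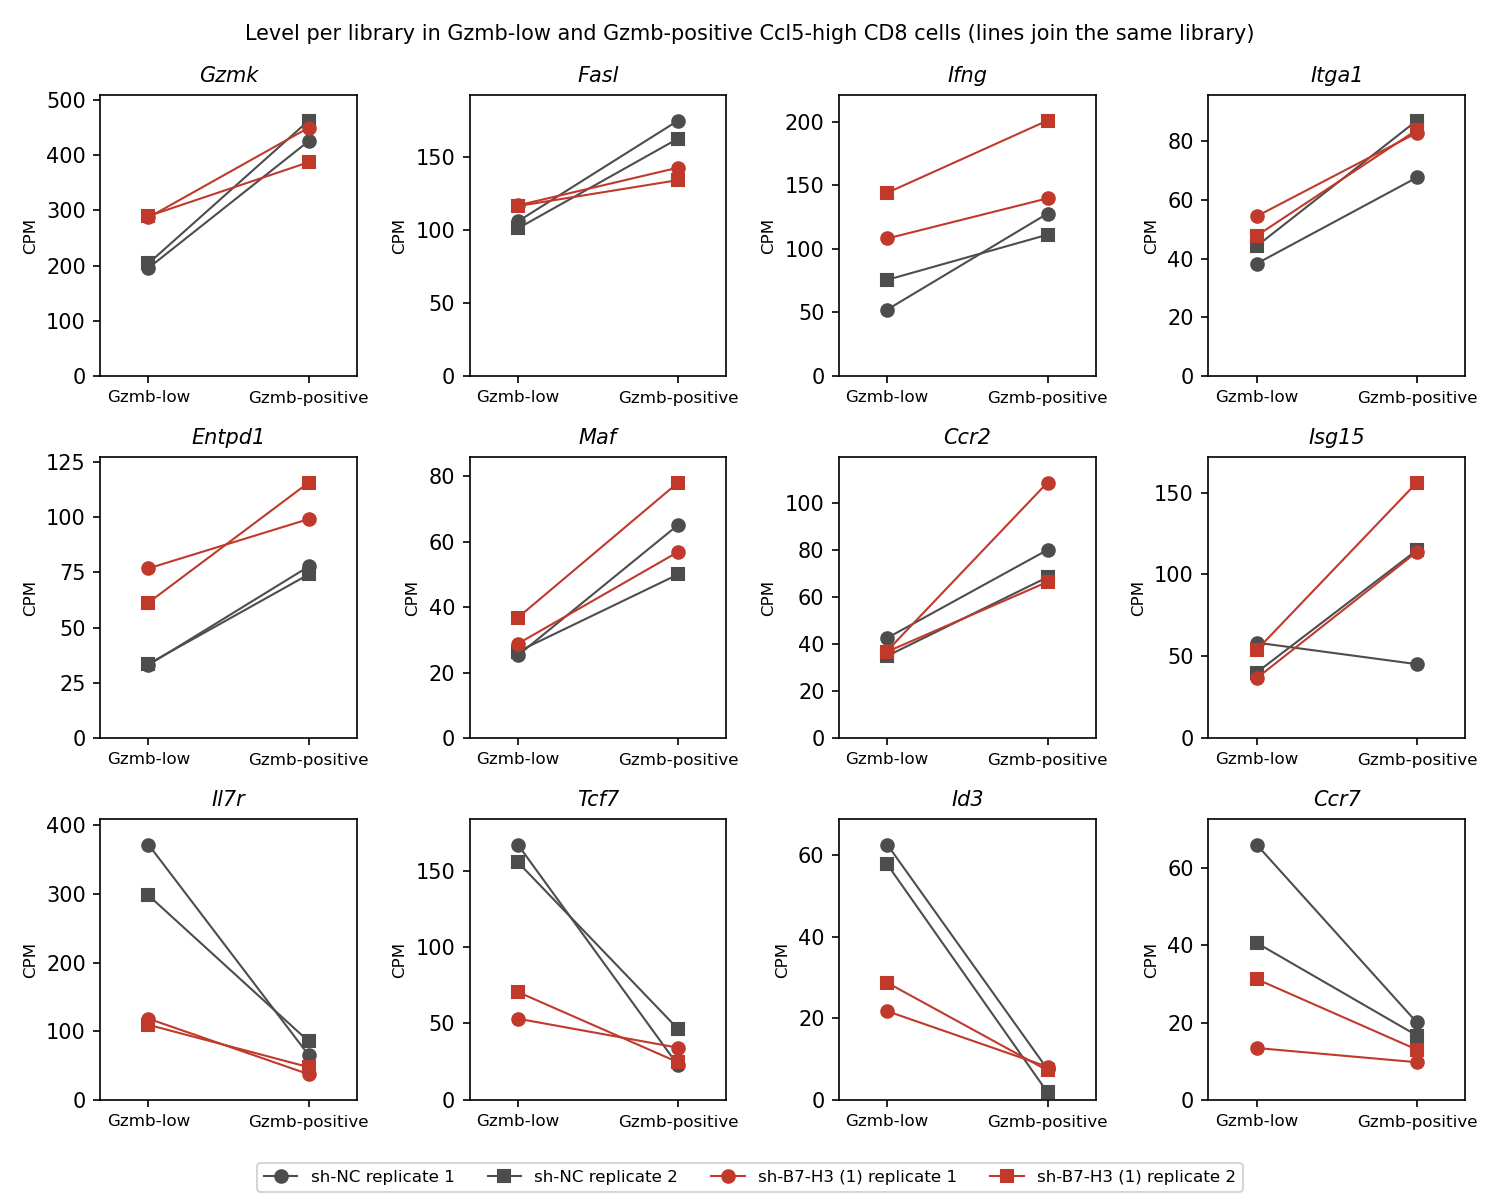
Level per library (CPM, y axis from 0) of 12 genes in Gzmb-low and Gzmb-positive Ccl5-high CD8 cells, with a line joining the same library, control in grey and knockdown in red. Gzmk, Itga1, Maf and Ccr2 rise along every line, Isg15 along all but that of control replicate 1, and Il7r, Tcf7, Id3 and Ccr7 drop along every line, most steeply in the control libraries.

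Of 197 antibody tags none was called between members and Gzmb-low cells by edgeR (0%), and 28 had an unadjusted p under 0.05, the same number as in DESeq2, where none was called either. The lowest adjusted p was 0.170, shared by Ly-6C (log2 difference −0.64), CD36 (−0.67) and Gr-1 (−0.36), which stood lower, and by CD11c (0.54), CD39 (0.51), CD86 (0.39), CD48 (0.32), KLRG1 (0.29) and CD8b (0.25, the product of a gene of the rule), which stood higher. Ly-6C, with the lowest unadjusted p (0.00221), was at 21106, 20994, 5316 and 7369 tag CPM in the members and at 36832, 42069, 7405 and 8844 in the Gzmb-low cells. Among tags whose genes were described above, CD39 and KLRG1 stood higher and the IL-7 receptor CD127 lower (−0.50, adjusted p = 0.210), the direction of their transcripts. CCR2 did not follow Ccr2: its tag differed by 0.01 (adjusted p = 0.970), and was lower in the members of both knockdown libraries. CD127 was at 4012, 3628, 3504 and 3764 tag CPM in the members and at 7170, 6846, 3903 and 4033 in the Gzmb-low cells, so its gap lay mainly in the control libraries. CD49a differed by 0.13 (adjusted p = 0.648), CD103 by 0.13 (adjusted p = 0.210) and FasL by −0.01 (adjusted p = 0.944). The tags of CCR2, CD127, KLRG1, CD49a, CD103 and FasL stood lower in the members of every library than in its uncalled barcodes. For CCR2 the uncalled barcodes held 21185, 21120, 19653 and 19505 tag CPM. Whether these tags report surface protein on the members was not tested.

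The members were also set against the 374 Gzmb-positive cells that the rule left out for carrying both Pdcd1 and Lag3, as exhausted-like cells do. Pdcd1 and Lag3 were part of the rule and differ by construction. The double-positive cells were deeper than the members in every library (medians of 6811, 6358, 7182 and 7243 UMIs), and no comparison at equal depth was made. Of 5984 genes tested, 30 were called, 0.501% (11 higher, 0.184%, and 19 lower, 0.318%). The genes that fell in the members included Nr4a2, a nuclear receptor induced by antigen signals. It was at 13.4, 3.93, 29.3 and 7.70 CPM in the members and 65.4, 95.1, 135 and 92.4 CPM in the double-positive cells (−2.85 ± 0.25, adjusted p = 1.54e-11). Tnfrsf9, the costimulatory receptor 4-1BB, fell by 2.42 ± 0.22 on the log2 scale (adjusted p = 4.73e-11), and Ccl3 and Ccl4, inflammatory chemokines released on activation, by 2.46 ± 0.16 (adjusted p = 8.41e-16) and 1.96 ± 0.11 (adjusted p = 8.12e-18). Rgs16, a brake on chemokine receptor signals, fell by 1.75 ± 0.18 (adjusted p = 9.35e-10) and Havcr2 by 1.15 ± 0.17 (adjusted p = 9.01e-06), or by 0.998 without knockdown replicate 2.

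Genes of the egress and homing list, which also holds the surface antigen gene Ly6c2, were higher in the members. The median log2 fold change of 8 tested was 1.13, against 0.00 over all genes, and 5 rose, Klf2, S1pr1, Gpr183 and Ly6c2 among them. Ly6c2, a surface protein of memory and circulating effector cells, was at 392.5, 305, 160 and 256 CPM in the members and 37.6, 76.1, 12.7 and 19.2 CPM in the double-positive cells (3.10 ± 0.17, adjusted p = 8.12e-18). S1pr1, the receptor that draws T cells out of tissue, was at 69.4, 47.2, 65.4 and 33.9 against 21.8, 11.9, 33.9 and 21.2 CPM (1.17 ± 0.24, adjusted p = 0.00231). Klf2, the factor that switches on S1pr1, rose by 1.20 ± 0.21 (adjusted p = 0.000184). Without control replicate 1, whose members held 291 CPM of Klf2, the log2 fold changes were 0.61 for Klf2 (adjusted p = 0.191), 1.03 for S1pr1 (0.0802) and 1.301 for Gpr183 (0.144), while Ly6c2 kept its call. Gzma was higher again (3.85 ± 0.18, adjusted p = 2.75e-20). Gzmk (0.25 ± 0.09, adjusted p = 0.191), Fasl (−0.07 ± 0.11, adjusted p = 0.929), Cdh1 (0.20 ± 0.22, adjusted p = 0.860) and Itga1 (0.55 ± 0.16, adjusted p = 0.0735) did not pass. Prf1, Tox and Ifng stood lower in the members by 0.51 to 0.68 on the log2 scale, each with an adjusted p under 0.05 and below the fold limit. Genes of the lists for other cell types were also called, Trdc and Tyrobp higher and Tcrg-C1 lower, together with the macrophage gene Apoe (1.32 ± 0.18, adjusted p = 4.68e-06). Which cells these transcripts came from was not tested. In control replicate 1 a single member held 76.3% of the Apoe UMIs, and Tyrobp lost its call without control replicate 1 (adjusted p = 0.184) or 2 (0.383).

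The main question was whether members from knockdown tumors differed from members of control tumors. Few genes were called. Of 5414 tested with edgeR, 28 were called, 0.517% (20 higher after knockdown, 0.369%, and 8 lower, 0.148%), 549 had an unadjusted p under 0.05 and 62 passed the adjusted p alone. DESeq2 called 5, all higher. With doublet-scored cells removed, which were a larger share of the knockdown members, 17 were called, 9 higher and 8 lower. In 39.5% of tested genes both knockdown libraries lay on 1 side of both control libraries. Levels below are scaled jointly over members and Gzmb-low cells so that the sets can be read side by side.

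No gene of the cytotoxic core was called. Among 15 granule genes tested besides Gzmb, 7 were above 0 and 8 below, and the median was −0.04. Gzmb itself, part of the rule, was at 799, 876, 743 and 1056 CPM. Gzmk differed by −0.09 ± 0.12 (adjusted p = 0.882), Prf1, at 110, 113, 112 and 123 CPM, by 0.08 ± 0.19 (adjusted p = 0.942), and Fasl by −0.28 ± 0.17 (adjusted p = 0.613). Itga1 differed by 0.09 ± 0.22 (adjusted p = 0.944) and Cdh1 by 0.13 ± 0.31 (adjusted p = 0.938). Of these, Fasl lay furthest from 0, at 143 and 134 CPM after knockdown against 175 and 163 CPM in the control. Gzma was lower after knockdown, by 0.68 ± 0.14 on the log2 scale (adjusted p = 0.0030, under the fold limit), and rested on the few cells named above.

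Klrk1 fell. It encodes NKG2D (chromosome 6, 129610323 to 129623864, GRCm38), an activating receptor for stress ligands on tumor cells. The control members held 170 and 167 CPM and the knockdown members 34.1 and 81.0 CPM, a log2 fold change of −1.52 ± 0.23 (adjusted p = 2.93e-05). The UMIs came from 19 of 59, 18 of 77, 12 of 95 and 17 of 107 cells. In the Gzmb-low cells Klrk1 was at 74.8, 66.3, 86.4 and 60.0 CPM (0.03 ± 0.15), so that both control member values lay above the other 6. The difference between the sets was itself called by its adjusted p (−1.54 ± 0.28, adjusted p = 0.000629), as it was for 24 of 7511 genes (0.32%), but without knockdown replicate 1 it was −0.82 (adjusted p = 0.721). The fall in the members stayed called in the 14 of 14 alternatives that gave it an adjusted p. DESeq2 gave none for it and called no gene lower, so the fall was not called there. The NKG2D protein tag did not follow: it was at 3341 and 3340 tag CPM in control members and at 4240 and 4390 after knockdown (0.37 ± 0.06, adjusted p = 0.0039, under the fold limit). Free NKG2D tag in uncalled barcodes stood above the members, at 12006, 11971, 14780 and 13999 tag CPM. It was also higher after knockdown, by 0.26 on the log2 scale. Of 9 killer lectin-like and innate-like receptor genes tested, Klrk1 alone was called, and Klrd1, the gene of its relative CD94, differed by −0.62 ± 0.13 (adjusted p = 0.0056).

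Klf2 and Tsc22d3 fell in the members, and stood lower after knockdown in the Gzmb-low cells too. Klf2 was at 273 and 109 CPM in control members against 69.9 and 53.5 CPM after knockdown (−1.57 ± 0.26, adjusted p = 0.000123), and the groups did not overlap. Without control replicate 1 its log2 fold change was −0.83 (adjusted p = 0.104). Tsc22d3, the glucocorticoid-induced GILZ, was at 110 and 76.0 against 14.6 and 47.7 CPM (−1.50 ± 0.31, adjusted p = 0.0037), and without knockdown replicate 1 the value was −0.92 (adjusted p = 0.169). In the Gzmb-low cells the log2 differences were −1.68 ± 0.10 for Klf2 and −1.44 ± 0.15 for Tsc22d3, and the tests of the difference between the sets gave adjusted p = 0.955 and 0.988. Slamf7, a receptor shared with NK cells, was at 100 and 72.2 against 27.6 and 41.9 CPM (−1.26 ± 0.28, adjusted p = 0.0077), and lost its call without control replicate 1 (adjusted p = 0.0987) or without knockdown replicate 1 (adjusted p = 0.129). In the Gzmb-low cells it differed by −0.89 ± 0.20, and the difference between the sets had an adjusted p of 0.905. Of 7 genes of the egress and homing list tested, Ly6c2 among them, all were below 0, with a median of −0.81, and Klf2 alone was called. The 11 quiescence genes had a median of −0.32, with Tsc22d3 alone called. Tcf7, at 22.5 and 46.3 against 34.1 and 24.6 CPM, did not separate the groups (−0.30 ± 0.37, adjusted p = 0.868).

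Itgae rose, the only 1 of 16 residency and adhesion genes to do so. This gene of CD103 (chromosome 11, 73090583 to 73147446, GRCm38) was at 37.6 and 37.0 CPM in control members against 73.1 and 85.3 CPM after knockdown (1.09 ± 0.27, adjusted p = 0.0225), carried by 7 of 59, 12 of 77, 22 of 95 and 25 of 107 cells. In the Gzmb-low cells it was at 35.7, 35.7, 37.8 and 41.4 CPM, and the difference between the sets was not called (0.94 ± 0.35, adjusted p = 0.306). Itgae was called in 7 of 14 alternatives, and lost its call without control replicate 1 (adjusted p = 0.0724), control replicate 2 (0.152) or knockdown replicate 2 (0.211), the last at a log2 fold change of 0.98. The CD103 tag differed by 0.05 ± 0.08 (adjusted p = 0.662), at 1191, 1217, 1276 and 1214 tag CPM. For neither Itgae nor Klrk1 was the matching tag called, and both tags stood lower in the members than in uncalled barcodes of the same library.

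**Figure D3:**
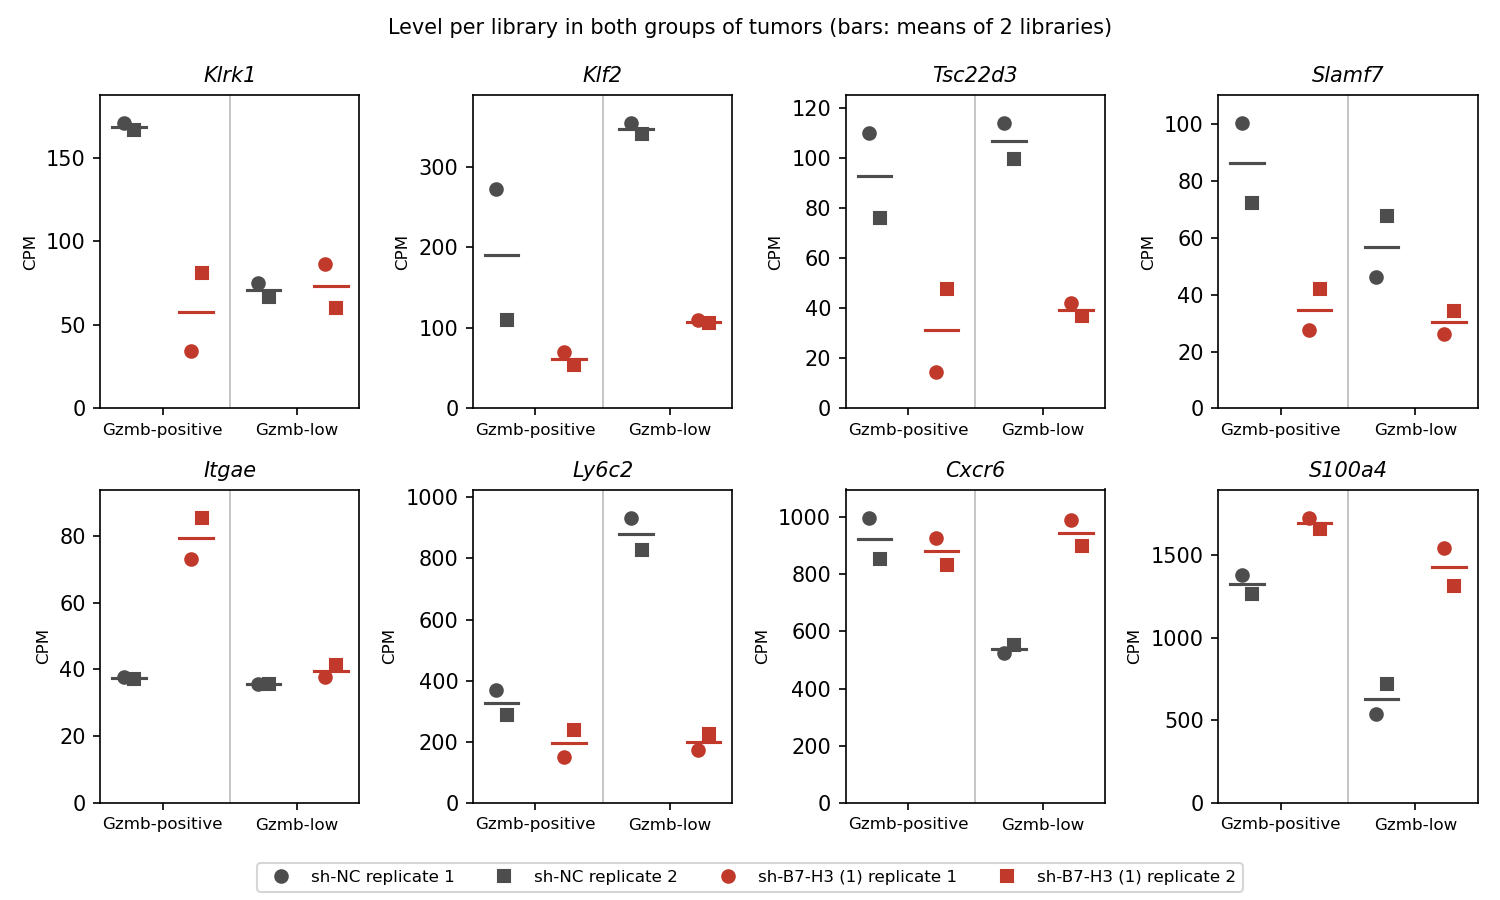
Level per library (CPM, y axis from 0) of 8 genes in Gzmb-positive and Gzmb-low Ccl5-high CD8 cells, control in grey and B7-H3 knockdown in red, with bars at the means of 2 libraries. For Klrk1 and Itgae the wider gap between the groups is that of the Gzmb-positive cells, Klf2 and Tsc22d3 show a gap in both sets, and for Ly6c2, Cxcr6 and S100a4 the wider gap is that of the Gzmb-low cells.

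Other receptors and signals differed under the fold limit. Ifngr1, a chain of the interferon gamma receptor, was at 318 and 345 CPM in control members against 185 and 181 CPM after knockdown (−0.86 ± 0.14, adjusted p = 0.00012). Il2rb, which passes IL-2 and IL-15 signals, was higher by 0.53 ± 0.14 (adjusted p = 0.0321), and the interferon-stimulated Ifi27l2a by 0.66 ± 0.14 (adjusted p = 0.0053). Ier2 (−0.95 ± 0.22, adjusted p = 0.0108) and Nfkbia (−0.80 ± 0.21, adjusted p = 0.0430), both induced early after stimulation or handling, were lower. Ifng was at 128 and 111 against 140 and 201 CPM (0.53 ± 0.19, adjusted p = 0.226). None of 10 inhibitory receptor genes was called, with a median of 0.24, among them Havcr2 (0.88 ± 0.30, adjusted p = 0.196). Outside the pathways, Gramd3 fell (−1.09 ± 0.26, adjusted p = 0.0170) and Glmn, a regulator of ubiquitin ligases, rose (1.18 ± 0.27, adjusted p = 0.0108). In the Gzmb-low cells the log2 differences were −1.27 ± 0.14 for Gramd3 and 1.12 ± 0.21 for Glmn, and the tests of the difference between the sets gave adjusted p = 0.949 and 0.975. Gramd3 lost its call without control replicate 2 (0.270) or knockdown replicate 2 (0.459), and Glmn without control replicate 1 (0.148) or knockdown replicate 2 (0.209).

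At a common depth of 3000 UMIs, members with a given transcript were counted for 10 genes, leaving out 0 to 2 shallower members per library. In control and knockdown members, respectively, Ifng was detected in 25.3% ± 6.396 and 40.1% ± 1.98 (SD, n = 2), Itgae in 7.83% ± 3.62 and 12.6% ± 0.452, Gzmk in 73.6% ± 2.40 and 68.7% ± 7.77, and Fasl in 40.5% ± 5.17 and 33.8% ± 3.84. At 2000 UMIs the means for Ifng were 23.8% and 27.1%, so that its difference was 3.25 instead of 14.8 percentage points. The difference for Itgae, 4.76 points, was 2.19 without control replicate 1, 7.32 without control replicate 2 and 9.54 without thinning. That for Fasl, −6.65 points, was −10.3 without control replicate 1, −2.997 without control replicate 2 and −3.94 without knockdown replicate 2. At 3000 and 2000 UMIs every Benjamini-Hochberg adjusted p of the members from the exact permutation tests was 0.667 or higher. Without thinning the lowest was 0.476, in a design whose smallest raw p is 0.333. In naive CD4 cells of the same libraries, which should lack these genes and had a median of 7391.5 to 8519 UMIs before thinning, Ifng was found in 0.478% and 2.90%, Itgae in 0.203% and 0%, Gzmk in 0.347% and 2.03%, and Fasl in 1.44% and 2.66%, so the members lay above that background. Without thinning, Ifng was detected in 49.2%, 40.3%, 56.8% and 55.1% of the members.

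Of the 20 genes that rose after knockdown, 11 were macrophage genes, ribosomal RNA repeats or Lars2. Of 9 macrophage genes tested, 8 were called higher (Apoe, Lyz2, C1qb, C1qc, H2-Aa, H2-Ab1, H2-Eb1 and Cd74), the ninth had a log2 fold change above 0, and the median was 2.13. Cd74, the invariant chain of MHC class II, was at 57.6 and 22.2 CPM in control members against 189 and 178 CPM after knockdown (2.28 ± 0.25, adjusted p = 1.02e-08), from 4, 3, 10 and 20 cells, and 1 cell of knockdown replicate 1 held 91 of its 116 UMIs. Without control replicate 2, Cd74 and H2-Eb1 alone kept their calls among these genes, and without knockdown replicate 2 Apoe, Lyz2, C1qb and C1qc lost theirs. When 1 Gzmb UMI was enough for a member, none of the 8 was called: Cd74 stood at 0.10 (adjusted p = 0.939), H2-Eb1 at 0.11, C1qb at 0.38, Apoe at 0.71, C1qc at 0.80 and Lyz2 at 1.104, while H2-Aa and H2-Ab1 were below 0. With doublet-scored cells removed, Apoe was at 0.37 (adjusted p = 0.850) and the other 7 had too few UMIs left to pass the filter on low counts. The summed level of 15 macrophage and neutrophil genes was 461 and 92.6 CPM in control members and 735 and 989 CPM in knockdown members. In Gzmb-low cells the sums were 290 and 899 against 566 and 773 CPM. In barcodes not called as cells, with at most 100 UMIs, they were 477 and 563 against 1681 and 1457 CPM. The latter were scaled to total UMIs alone, so a small gap between cells and uncalled barcodes cannot be read. The part of these macrophage transcripts in the result was not tested.

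Gm42418 and AY036118, which lie over ribosomal RNA repeats, and Lars2, a mitochondrial tRNA synthetase, rose in members and Gzmb-low cells alike. Gm42418 was at 5259, 5157, 26262 and 27529 CPM in the members and 6359, 4883, 29567 and 28107 CPM in the Gzmb-low cells (2.37 ± 0.09 in the members, adjusted p = 3.32e-25). In uncalled barcodes it was at 44216, 30525, 64412 and 37862 CPM. The median mitochondrial share of the members was 2.02%, 2.04%, 2.70% and 2.72%. No date or batch was given for the libraries, so handling of the pools and knockdown cannot be told apart.

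Several sums rested on single cells. Hspa1a, a heat-shock chaperone, was called lower (−1.72 ± 0.42, adjusted p = 0.0185) from 3, 4, 4 and 4 cells, and 1 cell of control replicate 2 held 27 of its 46 UMIs. Its log2 fold change was −0.69 without control replicate 2 (adjusted p = 0.775) and −0.97 without knockdown replicate 2 (0.379). Xcl1, a chemokine for cross-presenting dendritic cells, had 0, 27, 24 and 42 UMIs in the members, from at most 5 cells a library. Tsc22d3, Slamf7, Klrk1, Klf2 and Itgae were spread more evenly, with at most 26.7% of a library's UMIs in 1 member.

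**Figure D4:**
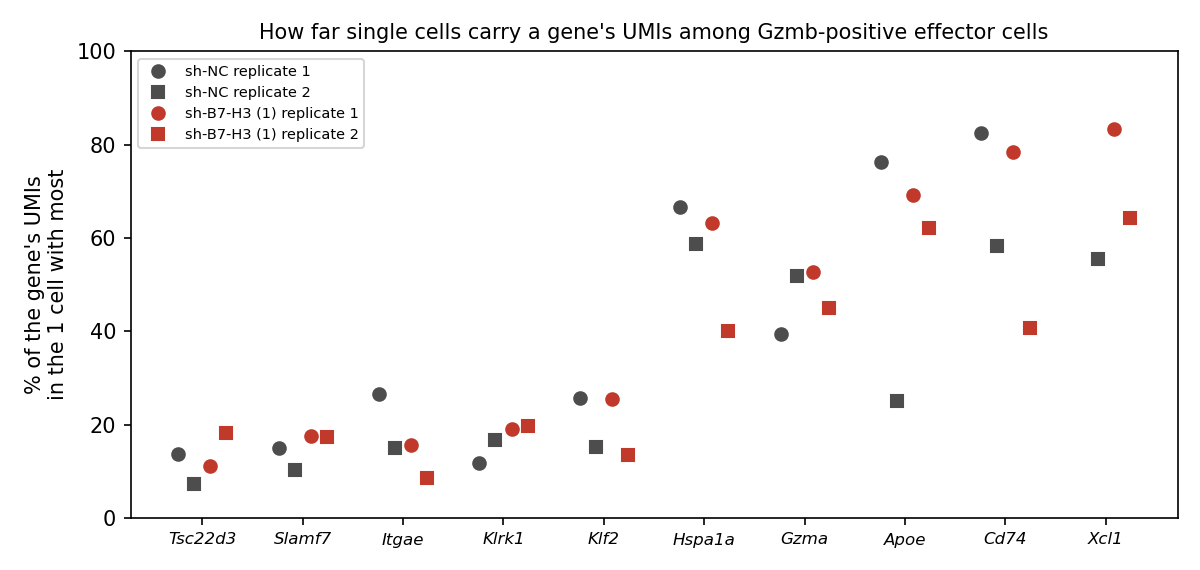
Percent of a gene's UMIs that came from the single member with most of them, per library, for 10 genes, control in grey and knockdown in red (no point where a library had 0 UMIs). Points for Hspa1a, Gzma, Apoe, Cd74 and Xcl1 lie between 25% and 83.3%, and those for the other 5 genes stay at or below 26.7%.

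On the surface, 5 of 197 tags were called between knockdown and control members (2.54%, 2 higher, 1.02%, and 3 lower, 1.52%), 77 passed the adjusted p alone and 90 an unadjusted p under 0.05. In 68.5% of the tags both knockdown libraries lay on 1 side of both control libraries. The median member held 6098, 5513, 5363 and 3817 tag UMIs. Ly-6C, a marker of memory and circulating effector cells, fell from 19981 and 20082 to 5223 and 7227 tag CPM (−1.69 ± 0.14, adjusted p = 0.000436). CD36, a fatty acid transporter, fell from 2199 and 2267 to 890 and 1073 (−1.19 ± 0.10, adjusted p = 0.000436), and CD45, the pan-leukocyte phosphatase, from 16628 and 16704 to 8048 and 7928 (−1.06 ± 0.06, adjusted p = 0.000124). CCR8, a chemokine receptor of activated T cells, rose from 178 and 239 to 461 and 462 (1.14 ± 0.15, adjusted p = 0.00185), and the B cell protein CD22 from 135 and 187 to 542 and 505 (1.68 ± 0.16, adjusted p = 0.000576). CCR8 lost its call without control replicate 1 (0.95, under the limit), knockdown replicate 1 (adjusted p = 0.0543) or knockdown replicate 2 (0.0539).

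These 5 tags differed in the same direction outside the members. In Gzmb-low cells the log2 differences between group means were −2.28 for Ly-6C, −2.00 for CD36, −1.09 for CD45, 1.16 for CCR8 and 1.21 for CD22, and in uncalled barcodes −1.67, −0.60, −0.45, 0.80 and 1.09. Among 9 isotype control tags the log2 fold changes in the members ran from −0.39 to 0.48, with 1 adjusted p under 0.05. Ptprc, the gene of CD45, differed by −0.04 ± 0.10 in the members (adjusted p = 0.942), and Ly6c2 by −0.72 ± 0.16 (adjusted p = 0.0090, under the fold limit). The T cell tags CD90.2 (−0.61 ± 0.08, adjusted p = 0.0015) and CD2 (−0.70 ± 0.06, adjusted p = 0.000436) were also lower, under the fold limit. Their genes Thy1 and Cd2 differed by −0.003 ± 0.12 and −0.06 ± 0.12 (adjusted p = 0.996 and 0.923). Of all tags that passed the adjusted p, 36 were higher and 41 lower. PD-1 protein, the product of Pdcd1 of the rule, was at 10520 and 9511 tag CPM in control members and 6596 and 6332 after knockdown, which is given without a test because cells with both Pdcd1 and Lag3 had been left out. CD39 protein was lower by 0.38 ± 0.07 (adjusted p = 0.0054) and Ly108 by 0.63 ± 0.06 (adjusted p = 0.000663), both under the limit. These 3 did not share the direction everywhere: in Gzmb-low cells the log2 differences were 0.09 for PD-1, 0.12 for CD39 and −1.35 for Ly108, and in uncalled barcodes 0.46, 0.41 and 0.01. The CD38 tag was lower by 0.32 ± 0.07 in the members (adjusted p = 0.0122), and differed by 0.06 in Gzmb-low cells and 1.08 in uncalled barcodes. Entpd1, the gene of CD39, and Cd38 did not follow their tags in the members (0.51 ± 0.21, adjusted p = 0.351, and 0.67 ± 0.23, adjusted p = 0.211). The part of free antibody in these differences was not tested.

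**Figure D5:**
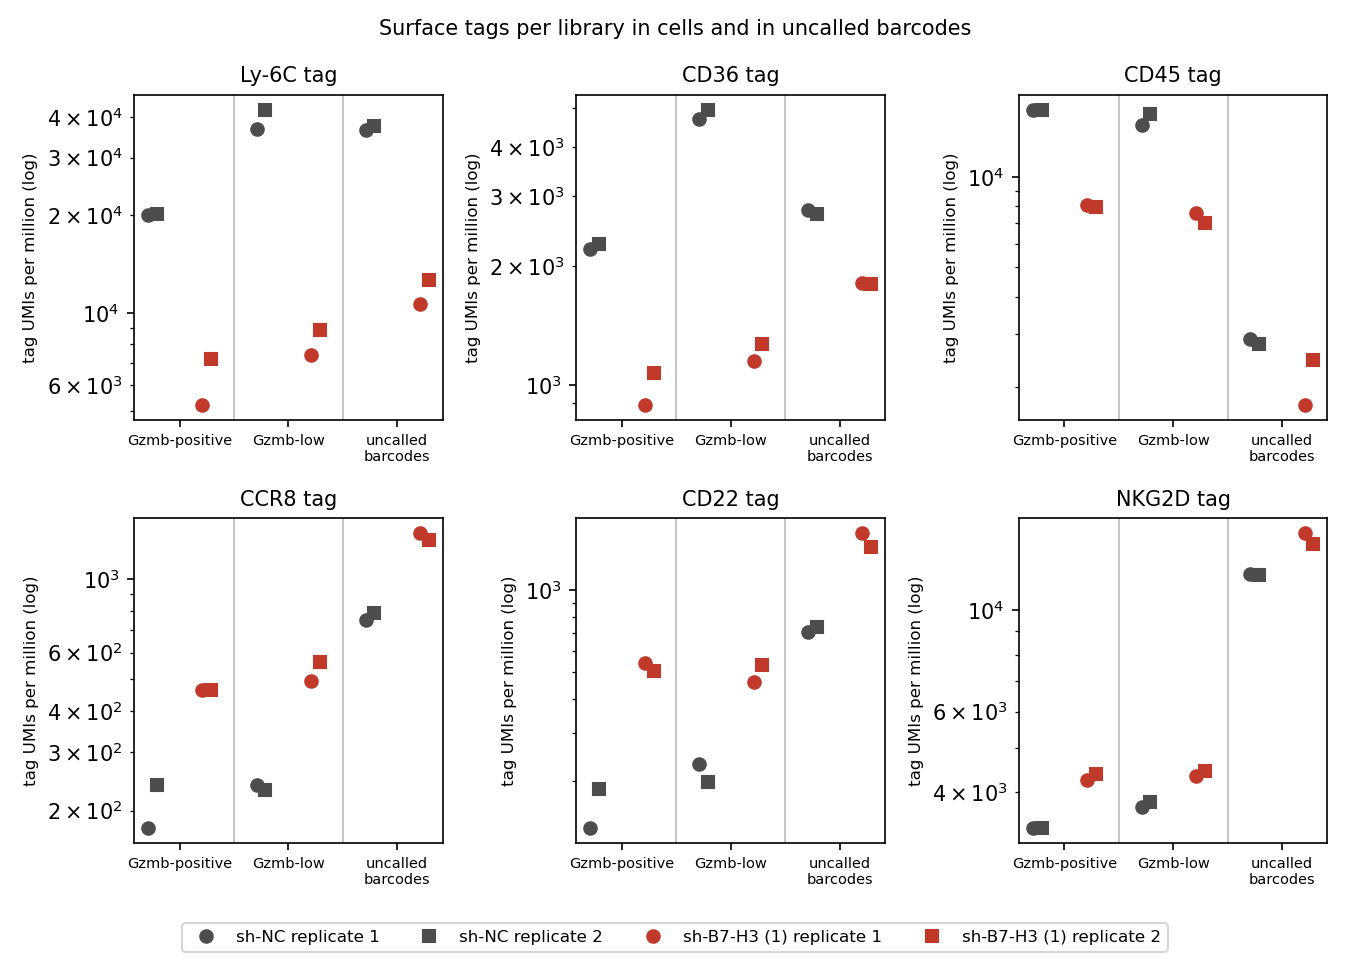
Tag CPM (log axis) of 6 antibody tags per library in Gzmb-positive cells, Gzmb-low cells and barcodes not called as cells, control in grey and knockdown in red. In each panel the groups lie in the same order in all 3 places, and in the CCR8, CD22 and NKG2D panels the uncalled barcodes lie above the cells of the same library.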

How the data were processed

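Transcripts and antibody tags of sorted CD3+ tumor T cells were counted by the authors with Cell Ranger against mm10, and the deposited values are raw UMI counts per barcode and feature. The labels' processing notes also name Seurat 4.0.0, whose output was not used here. Members were summed per library, since libraries and not cells are the replicates. The sums held 368459 to 685697 RNA UMIs. edgeR 4.0.16 (quasi-likelihood, TMM, filterByExpr, R 4.3.3) tested 4 sums between groups, or 8 sums with library as a block between cell sets, with Benjamini-Hochberg adjustment over all tested features. DESeq2 1.42.0 was an alternative. CPM values use TMM-scaled library sizes. Shares of members, and shares of members with a transcript, were compared by two-sided exact permutation tests over the 4 libraries. Doublets were scored against simulated ones (scikit-learn 1.9.0). The series' design text describes duplicate lanes of a pool per group, so p-values may measure only technical spread. The libraries of a group differed by more than the counting noise of independent UMIs (chi-square per degree of freedom of 1.45 and 1.28 for genes). UMIs of the same cell are not independent, so the draw of different cells from a pool can also raise these values. The values show that neither library was deposited a second time, and not that the libraries are independent. They were counted as 2 because the labels list them as separate samples.

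Genes named are those of the pathway lists and, per comparison, up to 5 called genes in each direction with the largest fold change, at least 50 CPM on average and no overlap between the groups' libraries. Tags had no such minimum. The second set leaves out genes of mitochondria, ribosomes and receptor segments. The members, lists and tests were chosen with earlier results of these data known. Genes named for being carried by single cells were chosen after their values were seen. Scripts were tested on simulated data. Some genes of the lists are not reported here.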

Additional observations from a re-analysis of the deposited data

Results flagged for a closer look

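For 24 of 7511 genes (0.32%, by adjusted p alone) the effect of B7-H3 knockdown differed between the Gzmb-positive members and the Gzmb-low cells, tested as an interaction in edgeR, and DESeq2 called 1. At an unadjusted p under 0.05 there were 601. The values here are the knockdown effect in the members minus that in the Gzmb-low cells, on the log2 scale.

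Of the T cell genes among them, several had a wide gap in the Gzmb-low cells and a small gap in the members. The difference was 1.41 for Ly6c2 (adjusted p = 8.52e-08), whose knockdown log2 fold change was −0.72 in the members and −2.12 in the Gzmb-low cells. It was −0.87 for Cxcr6, a receptor that holds effector cells near dendritic cells (−0.06 and 0.81), and −0.82 for S100a4 (0.36 and 1.18). For the transcription factors Rbpj and Ikzf2 it was −1.15 (0.04 and 1.18) and −1.31 (0.06 and 1.36), for Tnfrsf9 −1.97 (−0.30 and 1.65), and for Tubb5, a tubulin of dividing cells, 0.80 (0.22 and −0.58). Gzma differed by 2.03 and Xcl1 by 2.74, and both rest on few members per library. Without knockdown replicate 2 the value of Gzma was 0.77 (adjusted p = 0.696). Calls were also lost without knockdown replicate 1 for S100a4 (−0.73, adjusted p = 0.255), Ikzf2 (−0.77, 0.731), Rbpj (−1.12, 0.108), Tnfrsf9 (−1.95, 0.305) and Tubb5 (0.84, 0.168). They were lost without control replicate 1 for Rbpj (0.107) and Tubb5 (0.0719), without control replicate 2 for Ikzf2 (0.156) and Tnfrsf9 (0.692), and without knockdown replicate 2 for Tnfrsf9 (0.109) and Tubb5 (0.177). Ly6c2, Cxcr6 and Xcl1 kept theirs whichever library was left out. Each such fit leaves a single library in a group, so its spread comes from the other group alone. Without control replicate 2, the control members that were left held no Xcl1 UMI.

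Klrk1 (−1.54) and Hspa1a (−2.12) went the other way, with the gap in the members. Without knockdown replicate 1 that of Klrk1 was −0.82 (adjusted p = 0.721), and that of Hspa1a was −1.45 without control replicate 2 (adjusted p = 0.507) and −1.43 without knockdown replicate 2 (0.425).

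Of the other genes, 5 were of macrophages: H2-Eb1 (2.76), C1qb (2.61), C1qc (2.42), Lyz2 (2.19) and Cd74 (1.82). The summed level of the macrophage list in control replicate 2 was 92.6 CPM in the members and 899 CPM in the Gzmb-low cells. Without this library the values were 0.24 for Cd74 (adjusted p = 0.940), 0.60 for C1qb (0.893), 1.48 for H2-Eb1 (0.458), 0.41 for Lyz2 (0.940) and −0.14 for C1qc. Lyz2 (1.92, 0.296) and C1qc (2.29, 0.124) also lost their calls without knockdown replicate 2. Free RNA of these genes also differed between the groups, and its part was not tested.

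The last 8 genes lay outside the rule for named genes and were taken up after their values were seen. The difference was −1.13 for Fgl2, −1.08 for the cell cycle kinase Cdk6, −2.61 for Sdcbp2, −5.35 for Nrn1 (whose members held 0 to 11.1 CPM), 0.96 for Rgs10, 0.62 and 0.59 for the ribosomal protein genes Rps20 and Rps19, and 0.57 for the mitochondrial mt-Nd2. None of these 8 kept its call whichever library was left out. Without knockdown replicate 1 the adjusted p was 0.302 for Fgl2, 0.928 for Cdk6, 0.606 for Nrn1, 0.964 for Rgs10, 0.978 for Rps20 and Rps19 and 0.883 for mt-Nd2. Without control replicate 1 it was 0.434 for Fgl2, 0.0782 for Cdk6, 0.613 for Rgs10, 0.144 for Rps20 and 0.210 for Rps19. Without control replicate 2 it was 0.0533 for Sdcbp2, 0.486 for Nrn1, 0.241 for Cdk6 and 0.0635 for mt-Nd2, and without knockdown replicate 2 it was 0.122 for Sdcbp2, 0.536 for Rps20, 0.571 for Rps19 and 0.528 for mt-Nd2.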

How the results depend on the processing

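The ratio of members among kept cells (knockdown to control) was 2.21 to 2.75 under other thresholds and 2.04 to 3.22 when each library was left out in turn. Among CD8 cells it was 2.50 to 3.10 and 2.34 to 3.51, and the ratio of the Gzmb-positive fraction stayed under 1, at 0.754 to 0.978 and 0.746 to 0.933. For knockdown against control in the members, 24 to 39 genes were called with each library left out, 5 by DESeq2, 17 with doublet-scored cells removed and 62 with no limit on the fold change. H2-Aa and H2-Ab1 stood at −0.19 and −0.21 when 1 Gzmb UMI was enough. Of tags, 4 to 5 were called, and 77 with no fold limit. Against Gzmb-low cells, 37 to 65 genes were called with each library left out, 6 by DESeq2, 14 at 3000 UMIs per cell, 71 with 10 Ccl5 UMIs, 71 with up to 10% mitochondrial UMIs and 252 with no fold limit. Against double-positive cells it was 21 to 37, 10 by DESeq2 and 96 with no fold limit. For the difference of the knockdown effect it was 1 by DESeq2, and 13 (without knockdown replicate 1) to 72 (without control replicate 2) with each library left out, where C1qc ran from −0.14 to 4.27. Beside the losses given above, single calls against Gzmb-low cells were lost for Maf with 1 or 3 Gzmb UMIs required or at 3000 UMIs per cell (0.87, 0.89 and 0.97, under the fold limit), for Gzmm with 3 Gzmb UMIs, and for Cxcr4 with 1 or 3 Gzmb UMIs, up to 5000 genes, doublet-scored cells removed or 3000 UMIs per cell. With knockdown, removal of doublet-scored cells ended the calls of Tsc22d3 (adjusted p = 0.0913), Slamf7 (0.0927), Glmn (0.0913), Gramd3 (0.163) and Hspa1a (0.133). With 3 Gzmb UMIs those of Tsc22d3, Slamf7 and Gramd3 were lost, with up to 5000 genes those of Klf2 (−0.91, under the fold limit), Glmn, Gramd3 and Hspa1a, and at 3000 UMIs those of Tsc22d3 and Hspa1a. The causes were not tested.

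Shares of members with a transcript turned direction with depth and library. The differences, knockdown minus control in percentage points, with each library left out ran from −10.4 to 0.566 for Gzmk, −3.06 to 0.488 for Itga1, −2.34 to 3.89 for Cdh1 and −13.7 to 1.00 for Tcf7. At 2000 UMIs they were −4.50 for Prf1, −1.06 for Cdh1 and −0.0199 for Xcl1, and without thinning 0.387 for Gzmk, −3.12 for Prf1 and −0.793 for Cdh1.

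Replicate numbers did not pair the samples (correlation of same-numbered deviations 0.0152 for genes). With the number as a replicate block, 34 genes and 5 tags were called between knockdown and control. Without the library block, 53 genes were called against Gzmb-low cells and 35 against double-positive cells. With 338 members in 4 libraries, a gene at few UMIs per library could differ without detection.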

Other observations

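The T cell receptor beta segments of the members were mixed. A Trbv UMI was found in 18 of 59, 22 of 77, 31 of 95 and 36 of 107 members of control replicates 1 and 2 and knockdown replicates 1 and 2. Among members with a single segment, the most used was Trbv15 (4 of 17 cells) and Trbv19 (7 of 20 cells) in the control libraries, and Trbv3, Trbv13-1 and Trbv16 (4 of 30 cells each) and Trbv13-1 (6 of 33 cells) in the knockdown libraries. The effective number of segments, the exponential of the Shannon entropy, was 10.4, 5.36, 12.0 and 11.9 in the members and 11.2, 14.3, 14.0 and 15.7 in the Gzmb-low cells. The counts are small, each group is a pool of many mice, and no comparison was made.

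Among the members, 26, 32, 35 and 48 cells carried Pdcd1 without Lag3, 10, 21, 28 and 33 carried Lag3 without Pdcd1, and 23, 24, 32 and 26 carried neither, so that most members held a transcript of at least 1 of these receptors.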
